A study of Mus musculus with 16 samples.

Results

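Neurotrophic factors and their receptors, 9 genes in all, were followed across the RNA-seq libraries of cultured mouse neurons: the neurotrophins Bdnf and Ntf3, their receptors Ntrk2, Ntrk3, Ngfr and Sort1, the cytokine Clcf1, and the receptor subunits Cntfr and Lifr. They were chosen by gene symbol, all 9 were found among the 45724 genes of the deposited tables, and all 9 passed the filter on low values in every comparison. The cells were primary neurons from the brains of C57BL/6 mice at postnatal day 0, and each group had 4 libraries. Controls received DPBS, a phosphate-buffered saline, and the other groups received NP24, Tβ10 or Tβ4, peptides that the series attributes to the subcommissural organ, a secretory gland of the brain's ventricular system. All groups share the strain, the age and the culture, and the labels name no other allele or agent. The dose and the time of exposure are not given in the sources used here, nor is it said whether the libraries of a group came from separate cultures, so a p-value measures the spread between these libraries.

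Neurotrophins are secreted proteins that act on a pair of receptor types. The Trk receptors are tyrosine kinases that signal through the Ras, phosphoinositide 3-kinase and phospholipase C pathways, with TrkB (Ntrk2) preferred by BDNF and TrkC (Ntrk3) by NT-3 (Ntf3). The p75 receptor (Ngfr) binds all mature neurotrophins and, with sortilin (Sort1), their uncleaved precursors. CLCF1 belongs to the interleukin-6 family and acts on neurons through the CNTF receptor (Cntfr) joined to the LIF receptor (Lifr) and gp130 (Il6st). In the brain, Bdnf transcription follows neuronal activity, and TrkB is made by neurons in its kinase form and by astrocytes in a truncated form, which gene counts do not separate.

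Reads assigned to genes ranged from 11642242 to 38254320 per library, and values are normalized counts, that is reads divided by 1 size factor per library, with 1 read worth 0.536 to 1.71 normalized counts. The cultures expressed the neuronal genes Tubb3 (6002 ± 140 in controls, mean ± SD, n = 4) and Rbfox3 (4705 ± 562). Markers of other cells were present too, with P2ry12 of microglia at 371 ± 77.4. The listed microglial and macrophage markers were uneven in controls. Cx3cr1 was at 1304 ± 70.2, but Trem2 at 18.9 ± 11.8, Aif1 at 11 ± 8.44 and Tmem119 at 0.591 ± 1.18. Ribosomal RNA of the mitochondrion accounted for 9.32 to 14.2% of reads in controls, 5.98 to 8.12% with NP24, 4.76 to 9.53% with Tβ10 and 8.25 to 24.3% with Tβ4. The Tβ4 libraries differed most among themselves: library 2 had the lowest of these shares and library 1 the highest. The summed level of 9 fibroblast and meningeal markers was 1678 to 2234 in controls, 1098 to 1276 with NP24, 1175 to 1439 with Tβ10 and 2350 to 4659 with Tβ4, with no overlap between any peptide and the control, although Lum was at 0 in all 4 controls. Fn1 was the largest part of this sum in every group, and Dcn was near 0 in controls (2.1 ± 2.48). Fn1 averaged 1490 ± 216 normalized counts in controls, and its means were 1057 ± 85.5 (NP24), 1158 ± 95.2 (Tβ10) and 2047 ± 221 (Tβ4). Its control range, 1298 to 1721, did not overlap that of any peptide either. Whether Fn1 came from fibroblasts alone was not tested. Fewer cells of a type and less RNA per cell cannot be told apart in such samples.

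Per kilobase of exon, the most abundant of the 9 was the receptor Ntrk2 and the least abundant the receptor Ngfr. The level in controls was 661 ± 38.3 normalized counts per kb for Ntrk2, 325 ± 28.1 for Sort1, 300 ± 36.6 for Cntfr, 272 ± 40.4 for Ntrk3, 257 ± 22.5 for Ntf3, 72.4 ± 8.91 for Lifr, 28 ± 9.75 for Bdnf, 25.1 ± 8.73 for Clcf1 and 3.71 ± 2.77 for Ngfr. Ntrk2 was above every other member in all 4 controls. The ranges of Sort1, Cntfr, Ntrk3 and Ntf3 overlapped one another, those of Bdnf and Clcf1 did so too, and Lifr lay apart from both sets. Length here joins all annotated exons of a gene, 30.17 kb over 20 transcripts for Ntrk3 and 1.71 kb over 3 for Ntf3. Undivided, their control means were 8221 and 440 normalized counts, so how these genes rank depends on that length. Ngfr rested on 2 to 41 reads per library over the 16 libraries, so its differences are poorly measured.

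**Figure D1:**
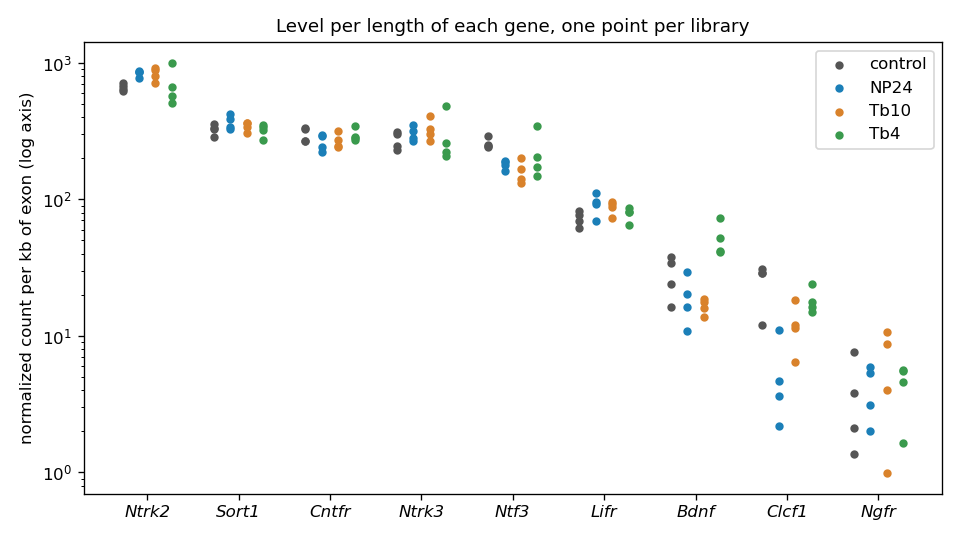
Normalized count per kilobase of exon (log axis) for the 9 genes in each of the 16 libraries, grouped by treatment and ordered by the control mean. Ntrk2 is highest at a control mean of 661 and Ngfr lowest at 3.71, and for Bdnf all 4 Tβ4 points lie above every other group.

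Bdnf encodes brain-derived neurotrophic factor, the TrkB ligand (ENSMUSG00000048482.14, GRCm38 chromosome 2, 109674700 to 109727007, plus strand, 11 annotated transcripts). Its normalized counts in libraries 1 to 4 were 149, 101, 213 and 234 in controls. With Tβ4 they were 257, 455, 323 and 259, with NP24 67.6, 125, 182 and 101, and with Tβ10 85.8, 116, 111 and 98.9. All 4 Tβ4 libraries lay above all controls and above every library of the other peptides, while NP24 and Tβ10 overlapped the control. Tested directly, Bdnf was 3.06-fold higher with Tβ4 than with Tβ10 (log2 difference 1.61 ± 0.29 SE, limma adjusted p = 0.00558) and 2.8-fold lower with NP24 than with Tβ4 (-1.49 ± 0.29, adjusted p = 0.00917). Against the control it did not pass for any peptide: the log2 difference was 0.92 ± 0.27 with Tβ4 (adjusted p = 0.458), -0.56 ± 0.29 with NP24 (adjusted p = 0.336) and -0.69 ± 0.26 with Tβ10 (adjusted p = 0.296). In the authors' deposited table the Tβ4 difference is 0.89 with an adjusted p of 0.131.

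Both Bdnf differences between peptides passed in 18 of 19 alternative settings, each library left out in turn among them. Without Tβ4 library 2, the highest, they were 1.44 against Tβ10 (adjusted p = 0.00559) and -1.31 for NP24 against Tβ4 (adjusted p = 0.00996). With the mitochondrial rRNA share as a covariate they were 1.84 and -1.71 and no longer passed (adjusted p = 0.102 and 0.134). The shares of the NP24 and Tβ4 libraries do not overlap, so share and peptide cannot be told apart there. The part of the fibroblast markers, highest with Tβ4 as given above, was not tested.

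Npas4, an activity-induced transcription factor that binds regulatory regions of Bdnf, was likewise highest with Tβ4 and lower in NP24 and Tβ10 means than in the control mean. Its normalized counts were 531 to 894 in controls, 167 to 276 with NP24, 235 to 294 with Tβ10 and 886 to 1362 with Tβ4, so NP24 and Tβ10 lay wholly below the control and Tβ4 overlapped it slightly. Npas4 fell by 1.62 with NP24 (adjusted p = 2.46e-05) and by 1.44 with Tβ10 (adjusted p = 0.000163), both on the log2 scale, and its value with Tβ4 was 0.65 ± 0.17 (adjusted p = 0.458). It was 2.09 ± 0.18 higher with Tβ4 than with Tβ10 (adjusted p = 2.15e-06). Within Tβ4, library 1 had the highest Npas4 (1362) and the lowest Bdnf (257). Library 2 of that group had the lowest Npas4 (886) and the highest Bdnf (455). Among controls, library 2 was lowest for both (531 and 101). Whether Npas4 or neuronal activity had a part in the Bdnf differences was not tested. Over the 16 libraries the genes most like Bdnf were Nr4a3 (Pearson r = 0.86), an activity-induced nuclear receptor, Tgfb2 (0.85), a TGF-beta ligand, and Stil (0.85), a centriole protein gene. These r values describe 16 libraries that share their groups and their depth, and they were the highest among 12553 genes.

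Bdnf has several transcription starts, each with its own promoter, and gene counts add them together. RefSeq (GRCm38.p6) windows of 250 bases before to 50 after a start were at hand for 7 Bdnf starts, and 19 such windows in all for 6 of the members. Each was searched on both strands for 5 motifs of activity-regulated promoters. These were the cyclic-AMP response element TGACGTCA (in 1.79% of all 32851 windows), its short form TGACG (20.8%, the full element included), the E-box CACGTG (7.15%), the AP-1 motif TGANTCA (7.81%) and the EGR motif GCGTGGGCG (0.612%). Among the 7 Bdnf windows, 1 held the short form, read as CGTCA at base -35 from its start, and 1 held an AP-1 match at -152. A match is only a match of letters. The 120 bases before the first Bdnf start and before the start with the short form (109692436) are shown because Bdnf differed between peptides, with the short form in capitals.
Bdnf, chr2:109674580-109674699, plus strand: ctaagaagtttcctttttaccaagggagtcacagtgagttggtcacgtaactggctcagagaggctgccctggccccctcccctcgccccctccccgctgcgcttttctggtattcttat
Bdnf, chr2:109692316-109692435, plus strand: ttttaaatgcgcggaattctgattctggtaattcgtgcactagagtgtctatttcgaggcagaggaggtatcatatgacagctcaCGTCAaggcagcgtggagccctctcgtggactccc

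Bdnf shares 896 exonic bases, 14.4% of its exons, with the antisense gene Gm45346. That gene averaged 2.06 ± 1.56 normalized counts with Tβ10 and 16.6 ± 12.8 with Tβ4. Whether reads were counted by strand is not given, so reads of this stretch cannot be assigned to one of the pair.

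Ntf3, which encodes the TrkC ligand neurotrophin-3 (ENSMUSG00000049107.13, chromosome 6, 126101412 to 126166910, minus strand), was lower with NP24. Its normalized counts were 430, 421, 497 and 413 in controls, 321, 306, 326 and 278 with NP24, 342, 240, 288 and 225 with Tβ10, and 255, 590, 298 and 348 with Tβ4. All NP24 and all Tβ10 libraries were below all controls, whereas Tβ4 ran from below to above them because of library 2. Ntf3 fell 1.43-fold with NP24 (log2 -0.51 ± 0.14, adjusted p = 0.0497), just inside the threshold, and only 4 of 19 alternatives kept it there. The Tβ10 value was larger, -0.70 ± 0.16, and just outside (adjusted p = 0.0553), with 3 of 19 alternatives inside. The difference between NP24 and Tβ10 was 0.18 (95% interval -0.23 to 0.60), and with Tβ4 the value was -0.31 ± 0.22 (adjusted p = 0.877). The authors' deposited table holds adjusted p values of 0.275 for NP24 and 0.112 for Tβ10.

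Leaving out any 1 of the 8 libraries took the Ntf3 call with NP24 past the threshold, with differences of -0.54 to -0.46. Without Tβ10 library 1 the Tβ10 difference was -0.81 (adjusted p = 0.0127). The gene most like Ntf3 was Klf7 (r = 0.88), a transcription factor of the Krüppel-like family, followed by Slmap (0.85) and Slc25a27 (0.84). Of its 2 RefSeq windows, the one at 126166744 held an E-box at -231, within a stretch that is partly exonic, and the one at 126164960 held none of the 5 motifs. The bases before the latter start are shown for the ligand that was lower with NP24.
Ntf3, chr6:126164961-126165080, minus strand: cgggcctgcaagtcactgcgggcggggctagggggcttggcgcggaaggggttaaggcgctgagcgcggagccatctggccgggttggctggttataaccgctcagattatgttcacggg

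Clcf1, a secreted cytokine of the interleukin-6 family that supports motor neurons (ENSMUSG00000040663.9, chromosome 19, 4214238 to 4223490, plus strand), had the largest difference of the 9. Its normalized counts were 117, 109, 45.9 and 110 in controls and 8.34, 13.9, 41.7 and 17.8 with NP24. They were 43.4, 69.9, 24.3 and 46 with Tβ10, and 57.3, 92, 67.6 and 61.5 with Tβ4. All NP24 libraries were below all controls, but library 3 of each group came close to the other, at 41.7 and 45.9. Clcf1 fell 4.96-fold with NP24 (log2 -2.31 ± 0.46, adjusted p = 0.00873), and in the authors' deposited table it is the one member under 0.05, at -2.24 with an adjusted p of 0.000261. The values of -1.04 ± 0.37 with Tβ10 (adjusted p = 0.264) and -0.39 ± 0.34 with Tβ4 (adjusted p = 0.914) did not pass.

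Compared directly, Clcf1 was 3.8-fold lower with NP24 than with Tβ4 (-1.93 ± 0.44, adjusted p = 0.0221), which 12 of 19 alternatives kept. The difference between NP24 and Tβ10 was -1.27 (95% interval -2.18 to -0.36) and did not pass after adjustment over 24232 genes (adjusted p = 1). Against the control, the NP24 call held in 17 of 19 alternatives. It was lost without control library 1 (-2.18, adjusted p = 0.0692) and with the mitochondrial rRNA share as a covariate (-0.97, adjusted p = 0.991), a fit in which no gene at all passed. The NP24 libraries held only 9 to 36 Clcf1 reads each.

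Clcf1 shares 311 exonic bases, 8.2% of its exons, with the protein-coding gene model AC109138.7 on the same strand. That model also fell with NP24, from 159 ± 43.8 to 59 ± 10.3 (log2 -1.38 ± 0.28, adjusted p = 0.00873), and the deposited counts do not show which of the pair each shared read came from. The genes most like Clcf1 over the 16 libraries were Slc50a1 (r = 0.89), a sugar transporter, Gss (0.87), the glutathione synthetase, and Nrn1 (0.87), which encodes neuritin, a protein that promotes neurite outgrowth.

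**Figure D2:**
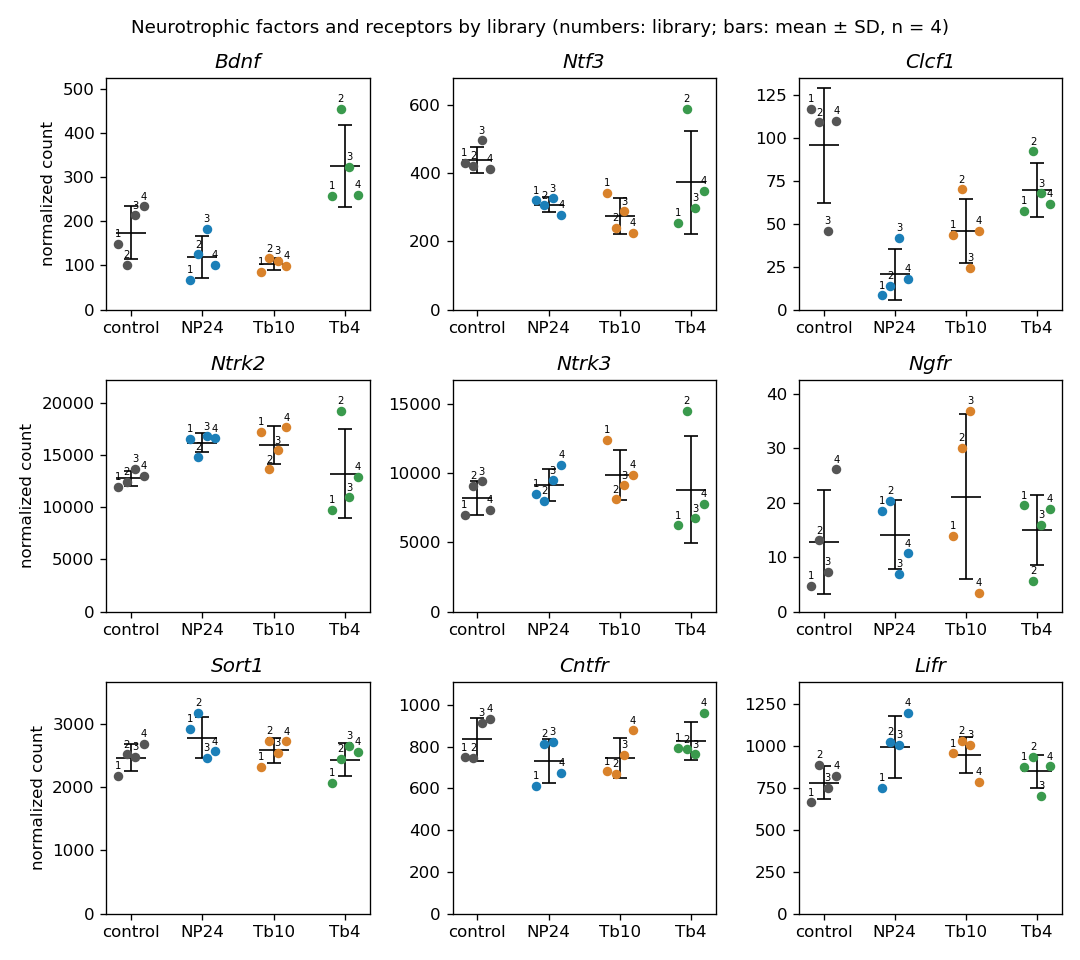
Normalized counts of the 9 genes by treatment (linear axes from 0), each point a library with its number, and bars the mean ± SD of 4 libraries. Bdnf is highest in the 4 Tβ4 libraries (257 to 455), Clcf1 lowest in the NP24 libraries (8.34 to 41.7), and Tβ4 library 2 stands above its group for Ntf3, Ntrk2 and Ntrk3.

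Ntrk2, which encodes TrkB (ENSMUSG00000055254.15, chromosome 13, 58806569 to 59133970, plus strand), was higher with NP24. Its normalized counts were 11969, 12398, 13663 and 13014 in controls and 16527, 14817, 16802 and 16588 with NP24, with no overlap. With Tβ10 they were 17192, 13634, 15450 and 17659, of which library 2 fell within the control range, and with Tβ4 9754, 19261, 10955 and 12894, spread on both sides of it. Ntrk2 rose 1.27-fold with NP24 (log2 0.34 ± 0.09, adjusted p = 0.0339). The size with Tβ10 was close, 0.32 ± 0.12, but did not pass (adjusted p = 0.31), and the difference between these peptides was 0.02 (95% interval -0.32 to 0.37). With Tβ4 it was 0.00 (95% interval -0.42 to 0.43).

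The Ntrk2 call with NP24 held in 10 of 19 alternatives. It was lost without control library 1, 2 or 4 (0.31, 0.33 and 0.35; adjusted p = 0.12, 0.105 and 0.0645) and without NP24 library 1 or 3 (0.33 and 0.32; adjusted p = 0.0876 and 0.135). It was also lost without a filter (limma adjusted p = 0.0735) and with the spread of all 16 libraries (adjusted p = 0.422). The same held with the replicate number as a block (adjusted p = 0.0618). With the mitochondrial rRNA share as a covariate the difference was 0.26 and did not pass (adjusted p = 0.991), in a fit in which no gene passed. The authors' deposited table gives 0.34 with an adjusted p of 0.371. The summed levels of 10 neuronal markers were 62926 to 70047 in controls and 70569 to 77372 with NP24, and those of 10 astrocyte markers 8989 to 10725 and 10717 to 11589. With NP24 limma called 0 of the 10 neuronal markers (3 at an unadjusted p under 0.05, DESeq2 2). It called 1 of the 10 astrocyte markers, and 4 of these had values below 0. The neuronal and astrocyte sums were 69317 to 76068 and 8954 to 12846 with Tβ10. With Tβ4 they were 52811 to 78280 and 11157 to 14966. Both cell types make Ntrk2, and their part in the NP24 difference was not tested. The bases before its annotated start, whose RefSeq window held none of the 5 motifs, are shown for the receptor that rose.
Ntrk2, chr13:58806449-58806568, plus strand: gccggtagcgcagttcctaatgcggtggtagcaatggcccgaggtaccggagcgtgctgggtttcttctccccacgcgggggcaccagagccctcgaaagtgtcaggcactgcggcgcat

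Ntrk3, which encodes TrkC (ENSMUSG00000059146.12, chromosome 7, 78175959 to 78738012, minus strand), did not pass in any comparison. Its normalized counts were 6985 to 9420 in controls, 8016 to 10599 with NP24, 8120 to 12393 with Tβ10 and 6221 to 14529 with Tβ4. The log2 differences from control were 0.16 ± 0.11 with NP24, 0.26 ± 0.14 with Tβ10 and 0.02 ± 0.23 with Tβ4 (limma adjusted p = 0.485, 0.513 and 0.996). Their 95% intervals, -0.06 to 0.38, -0.04 to 0.56 and -0.48 to 0.53, all included 0, so their sign is not settled. The genes most like the Trk receptors were Apba1 (r = 0.97), Prkca (0.96) and Rras2 (0.95) for Ntrk2 and Acvr1 (0.97), Nck2 (0.96) and Zeb2 (0.96) for Ntrk3. Prkca encodes a protein kinase C and Rras2 a Ras-like GTPase. These r values were the highest among 12553 genes. Tβ4 library 2 was the highest of all libraries for Ntrk2 (19261) and Ntrk3 (14529), and its part in these r values was not tested.

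Tβ4 library 2 stood above its group for both Trk receptors, with 19261 for Ntrk2 and 14529 for Ntrk3 where the next highest library of the group had 12894 and 7773. It had the lowest mitochondrial rRNA share of its group (8.25%), and library 1, with the highest share (24.3%), had the lowest Ntrk2 and Ntrk3. Without library 2, Ntrk2 was 0.54 higher with NP24 than with Tβ4 (adjusted p = 0.0101) on the log2 scale. Then Ntrk2 also differed by -0.52 for Tβ4 against Tβ10 (adjusted p = 0.0152), and Ntrk3 by -0.50 (adjusted p = 0.0425). With all libraries these differences were 0.34, -0.32 and -0.24 (adjusted p = 0.337, 0.459 and 0.725). Leaving it out also raised the count of all genes that differed between Tβ4 and control from 0 to 360.

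Ngfr, the p75 receptor (ENSMUSG00000000120.6, chromosome 11, 95568818 to 95587735, minus strand), was near the detection limit in every group. Its lowest and highest normalized counts were 4.73 and 26.1 in controls, 6.96 and 20.3 with NP24, 3.41 and 36.9 with Tβ10, and 5.68 and 19.5 with Tβ4. The groups overlapped, and the 95% interval of its log2 difference from control ran from -1.16 to 1.70 with NP24 and from -1.14 to 1.81 with Tβ4, and reached 2.05 with Tβ10. A 2-fold difference in either direction was thus not excluded with NP24 or Tβ4, nor was a 2-fold rise with Tβ10.

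Sort1, the sorting receptor sortilin (ENSMUSG00000068747.14, chromosome 3, 108284082 to 108361511, plus strand), overlapped the control with each peptide. It had 2174 to 2684 normalized counts in controls, 2461 to 3180 with NP24, 2318 to 2737 with Tβ10 and 2073 to 2657 with Tβ4. Its log2 differences were 0.17 ± 0.10, 0.07 ± 0.11 and -0.02 ± 0.12 with NP24, Tβ10 and Tβ4 (adjusted p = 0.399, 0.863 and 0.992), and no 95% interval of the 3 reached past 0.38 in either direction. Ap1b1, a subunit of the adaptor that carries cargo from the Golgi, was the gene most like it (r = 0.92).

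The receptor subunits that CLCF1 uses gave no call. Cntfr, the ligand-binding subunit (ENSMUSG00000028444.17, chromosome 4, 41657498 to 41697089, minus strand), had 746 to 932 normalized counts in controls, 613 to 823 with NP24, 669 to 877 with Tβ10 and 763 to 963 with Tβ4, and its log2 difference was -0.20 ± 0.13, -0.16 ± 0.13 and -0.01 ± 0.13. None passed (adjusted p = 0.464, 0.694 and 0.998). Lifr, a signalling subunit (ENSMUSG00000054263.12, chromosome 15, 7090614 to 7197489, plus strand), had 663 to 887 in controls, 750 to 1197 with NP24, 786 to 1027 with Tβ10 and 700 to 933 with Tβ4. Its differences of 0.34 ± 0.13 with NP24 (adjusted p = 0.193), 0.27 ± 0.13 with Tβ10 (adjusted p = 0.444) and 0.12 ± 0.14 with Tβ4 (adjusted p = 0.939) did not pass either. All groups of both genes overlapped the control. Il6st, the gp130 subunit that CLCF1 also uses, had 618 ± 90.4 in controls and a difference of -0.13 ± 0.15 with NP24 (adjusted p = 0.71).

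**Figure D3:**
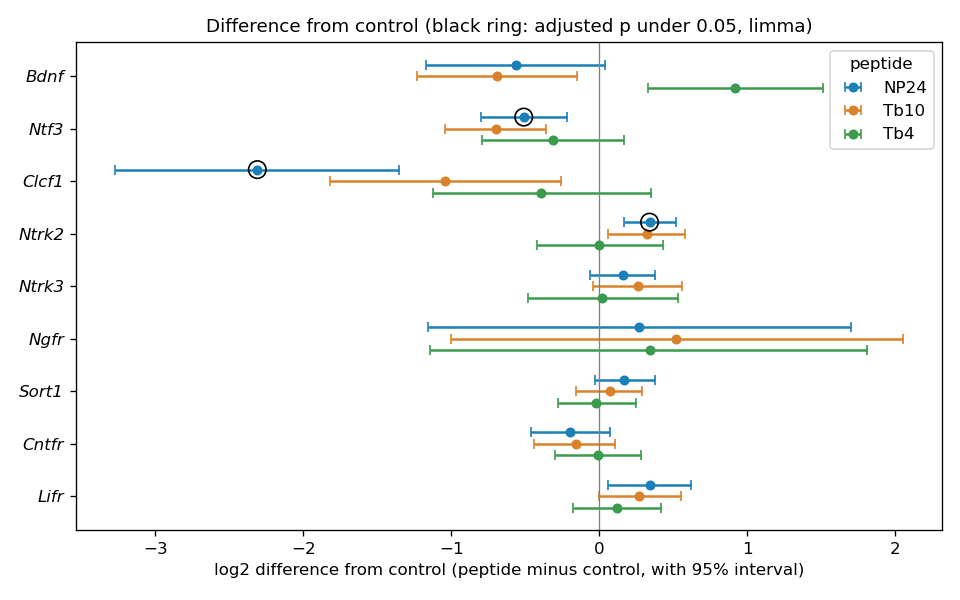
Log2 difference from control with its 95% interval for the 9 genes and 3 peptides (positive values are higher with the peptide), with a black ring where the adjusted p was under 0.05. Rings mark Ntf3 (-0.51), Clcf1 (-2.31) and Ntrk2 (0.34) with NP24 alone, and the Bdnf points lie on opposite sides of 0 for Tβ4 (0.92) and Tβ10 (-0.69).

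Counted over the 9 genes, 1 rose and 2 fell with NP24, where 2.63% of 21774 genes passed. With Tβ10 limma called 0 of the 9, where 0.633% of 21960 genes passed, 5 of the 9 had an unadjusted p under 0.05, and DESeq2 called Ntf3 alone. With Tβ4 limma called 0 of the 9 and 0% of 22205 genes; 1 of the 9 had an unadjusted p under 0.05, and edgeR and DESeq2 called 0. The median log2 difference of the 9 was 0.16, 0.07 and 0.00 with NP24, Tβ10 and Tβ4, beside -0.00 for all genes tested in each. The libraries of peptide and control did not overlap for 3 of the 9 with NP24 (9.84% of all genes), 1 with Tβ10 (6.92%) and 1 with Tβ4 (4.43%). The 3 comparisons share the 4 control libraries, so they are not independent of one another.

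Between peptides, 2 of the 9 were lower with NP24 than with Tβ4 (2.09% of 24232 genes passed) and 1 was higher with Tβ4 than with Tβ10 (1.35% passed), Bdnf being called in both. Libraries did not overlap for 2 and 1 of the 9 (7.54% and 6.59% of all genes). Between NP24 and Tβ10 limma, edgeR and DESeq2 called 0 of the 9, limma called 0% of all genes, 1 of the 9 had an unadjusted p under 0.05, and 0 were free of overlap (2.11% of all genes).

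The wider pathways were read from 8 lists with 167 genes beside the members. For comparison with the list counts, limma called 2.63% of all genes tested with NP24, 0.633% with Tβ10 and 0% with Tβ4. Of 11 further neurotrophin ligands, receptors and partners, 9 were tested and limma called 0 with any peptide. An unadjusted p was under 0.05 for 2 with NP24, 1 with Tβ10 and 0 with Tβ4, and DESeq2 called 1 with NP24. Ntf5, a further TrkB ligand, was too low to test, at most 2.61 normalized counts in any library. Of 45 genes of Trk signalling, 1 rose with NP24, the small GTPase gene Rap1a (0.50 ± 0.12, limma adjusted p = 0.0323). In this list 9 had an unadjusted p under 0.05 with NP24, and DESeq2 called 4. With Tβ10 or Tβ4 limma called 0 of them (5 and 2 at an unadjusted p under 0.05, DESeq2 1 and 0). Of 18 tested genes around the p75 receptor, 1 rose with NP24, Rtn4 (0.33 ± 0.08, adjusted p = 0.0374), which encodes the growth inhibitor Nogo. Rap1a held in 10 of 19 alternatives and Rtn4 in 9. The list medians with NP24 were 0.10 and -0.06.

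Among genes of neurotrophin cleavage and release, Plat fell with NP24. Plat encodes tissue plasminogen activator, a protease that generates plasmin, which converts proBDNF to its mature form. It had 416 ± 54.9 normalized counts in controls and 271 ± 46.7 with NP24 (log2 -0.62 ± 0.16, adjusted p = 0.0422), a call that 8 of 19 alternatives kept. With Tβ10 it had 288 ± 22.6 (-0.52 ± 0.15, adjusted p = 0.145) and with Tβ4 498 ± 18.4 (0.27 ± 0.14, adjusted p = 0.78). Tested directly, Plat was higher with Tβ4 than with Tβ10 by 0.79 ± 0.15 (adjusted p = 0.00751) and lower with NP24 than with Tβ4 (-0.89 ± 0.15, adjusted p = 0.00284).

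Among 17 regulators of Bdnf transcription, Npas4 fell and Mef2c rose with NP24 (0.42 ± 0.10, adjusted p = 0.0358), and limma called Npas4, lower, with Tβ10, where DESeq2 called 2 of the list. Mef2c, an activity-regulated factor, held in 11 of 19 alternatives. The list of interleukin-6 family cytokines and receptors held 1 call, Il31ra with NP24 (-0.61 ± 0.12, adjusted p = 0.00767), out of 9 tested. Of 24 JAK and STAT genes, limma called Stat2, which fell by 0.55 with NP24 (adjusted p = 0.0357) and by 0.71 with Tβ10 (adjusted p = 0.0285), on the log2 scale. It held in 9 and 11 of 19 alternatives. DESeq2 called 1 gene of this list with NP24 and 2 with Tβ10, and Stat3 had a limma difference of -0.57 with Tβ10 (adjusted p = 0.06).

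Other neurotrophic factors gave 1 rise and 3 falls with NP24 among 15 tested. Ptn, the growth factor pleiotrophin, rose from 4916 ± 418 to 7262 ± 161 normalized counts (0.57 ± 0.09, adjusted p = 0.00099). Vegfa, the vascular growth factor, fell from 1833 ± 206 to 1020 ± 227 (-0.86 ± 0.13, adjusted p = 0.000934), and neuregulin Nrg1 fell by 0.79 on the log2 scale (adjusted p = 0.000877). Gdf15, a stress-induced ligand of the GFRAL receptor, fell from 49.8 ± 19.2 to 7.23 ± 5.45 (-2.92 ± 0.64, adjusted p = 0.0179). With Tβ10 1 of 16 fell, Vegfa (-0.84 ± 0.12, adjusted p = 0.00178), and with Tβ4 limma, edgeR and DESeq2 called 0 in any of the 8 lists, where 13 list entries had an unadjusted p under 0.05. Every list call against the control was lost with the mitochondrial rRNA share as a covariate, but no gene at all passed in those fits. The shares of the NP24 libraries do not overlap those of the control, so share and peptide cannot be told apart there.

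**Figure D4:**
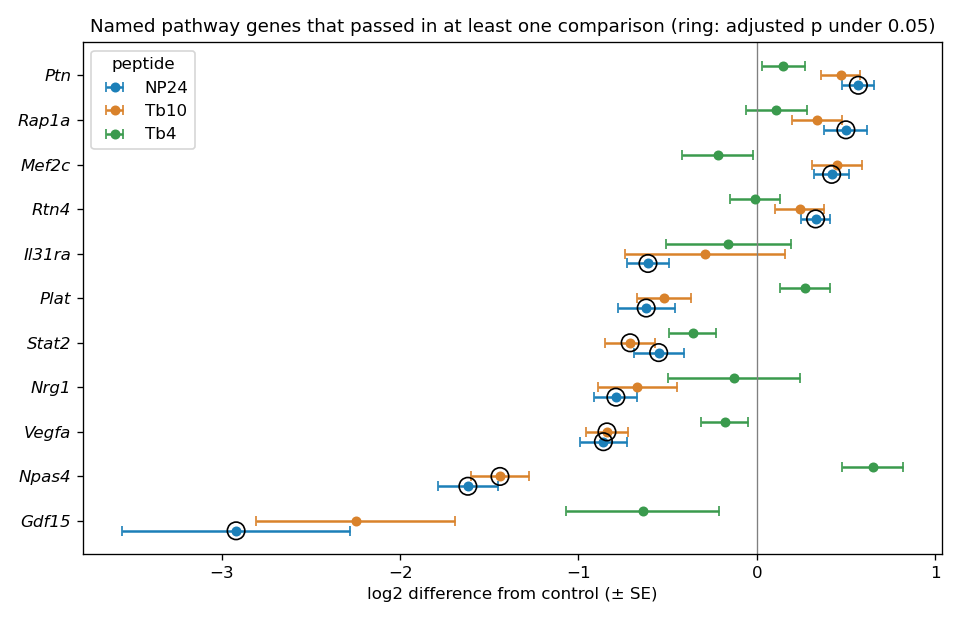
Log2 difference from control (± SE) with each peptide for the pathway genes named in the text that passed in at least 1 comparison, with a ring where the adjusted p was under 0.05. Npas4 lies below 0 with NP24 (-1.62) and Tβ10 (-1.44) and above 0 with Tβ4 (0.65, not passing).

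Markers of non-neuronal cells moved beside these results. With NP24, 5 of 7 tested fibroblast markers fell, 4 of 8 microglial and macrophage markers, 2 of 4 of pericytes and endothelium and 2 of 9 of the oligodendrocyte lineage, and 1 of 10 astrocyte markers, Aqp4, rose. With Tβ10 the same lists gave 3 of 7, 2 of 10, 2 of 5, 0 of 9 (2 at an unadjusted p under 0.05) and again Aqp4. With Tβ4 limma called none of them, DESeq2 called 3 fibroblast, 2 astrocyte and 1 pericyte or endothelial marker, and all 7 fibroblast markers had values above 0 with a median of 1.16. The summed pericyte and endothelial level was 375 to 638 in controls, 227 to 296 with NP24, 181 to 309 with Tβ10 and 701 to 1802 with Tβ4. That of 13 microglial and macrophage markers was 2099 to 2565, 1815 to 1952, 1725 to 2158 and 2237 to 3208. Cx3cr1 was the largest part of this sum and was not called with NP24 (0.06 ± 0.10, limma adjusted p = 0.794). P2ry12 was not called either (-0.31 ± 0.16, adjusted p = 0.341). The markers of this list that fell with NP24 were Laptm5, Lyz2, Ctss and Cd68. The endothelial marker Cldn5 was at or near 0 in every group, with 0 to 1.61 in controls, 0 in all NP24 and Tβ10 libraries and 0 to 3.41 with Tβ4, and was too low to test. Summed markers of cholinergic neurons (112 to 294 in any library) and of Schwann cells (1733 to 3043) overlapped in all groups. The part of these cells in the differences of Bdnf, Ntf3, Clcf1 and Ntrk2 was not tested.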

How the data were processed

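Total RNA was measured in 16 libraries, made per the labels' protocols by the SMARTer Stranded kit (v2). The submitters' processing notes name FastQC, HISAT, HISAT2, featureCounts, DESeq2 and GRCm38; versions and the strand setting are not given in the sources used here. The deposited library values are signal: reads per gene after the authors' division by a size factor for each library. In each library 100% of the nonzero values were whole reads at a tolerance of 0.01. The authors' deposited fold changes and standard errors are log2 values, their Wald statistic is a score, and their p-value has an adjusted form. These are used only where their table is named.

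The main test was limma-trend (limma 3.58.1, R 4.3.3). Values were log2-transformed after adding 1, and a gene was tested when 4 or more of the compared libraries reached 10 normalized counts. Peptides were compared with the control in fits of 8 libraries and with each other in 1 fit of all 16. P-values were Benjamini-Hochberg adjusted over all genes, with a threshold of 0.05, and 95% intervals come from the same fits. Among 19 alternatives per comparison were edgeR 4.0.16 and DESeq2 1.42.0, run on recovered reads. The scripts were tested on simulated data. Exon lengths and positions came from GENCODE M21 (45596 of 45724 identifiers matched without version, 45045 with it). Sort1 shares 338 exonic bases with the antisense gene Gm12523.

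The members, gene lists and markers were chosen with earlier results of these data known. Named genes are the members, list genes that passed or were among the 4 smallest p of their list, and the 3 genes most like each member with a mean of at least 50. Differences between peptides are given one by one for Bdnf, Ntf3, Clcf1, Ntrk2 and Ntrk3, a choice made after their values were seen. Some list genes are not reported here.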

Additional observations from a re-analysis of the deposited data

Results flagged for a closer look

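In 3 of 36 groups of 4 libraries, 1 library lay far from the other members of its group, where chance alone gives about 1 in 20. Ntrk2 in NP24 library 2 was 14817 normalized counts, the lowest of its group though above every control. Clcf1 in control library 3 was 45.9, below the other controls, and without that library the NP24 difference was -2.63 (limma adjusted p = 0.00598). Cntfr in Tβ4 library 4 was 963, above the rest of its group.

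The effect of the peptides differed when they were tested against each other for Bdnf, with -1.49 for NP24 against Tβ4 and 1.61 for Tβ4 against Tβ10, and for Clcf1, with -1.93 for NP24 against Tβ4, all as log2 differences.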

How the results depend on the processing

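The called differences of the 9 genes kept their direction in all 19 alternatives, and how many kept their call stands beside each. DESeq2 on recovered reads called 1178 genes with NP24, 432 with Tβ10 (1 of the 9) and 82 with Tβ4 against control, 1172 for NP24 against Tβ4 and 813 for Tβ4 against Tβ10. Library-size scaling moved the median of all genes by 0.13 for NP24 against Tβ4 and -0.18 for Tβ4 against Tβ10. Under it, calls were 507 higher and 256 lower with NP24 (253 and 319 in the main analysis), 56 and 67 with Tβ10 (22 and 117), 363 and 269 for NP24 against Tβ4 (107 and 400), and 165 and 449, 614 in all, for Tβ4 against Tβ10 (254 and 72). It gave -0.09 for Ntrk2 and -0.06 for Ntrk3 with Tβ4, and -0.02 for Ntrk2 between NP24 and Tβ10. TMM scaling gave -0.03 for Ntrk2 and a value just under 0, 0.00, for Ntrk3 with Tβ4. A pseudocount of 10 called 1 of the 9 with Tβ10. Without a filter, 365 genes passed with NP24 (1 of the 9) and 184 for Tβ4 against Tβ10.

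With the mitochondrial rRNA share as a covariate, 0 genes, and so 0 of the 9, passed with NP24 or Tβ10, 7 for NP24 against Tβ4 and 10 for Tβ4 against Tβ10, 0 of the 9 in either. Its values were -0.84 for Ngfr, -0.02 for Ntrk3 and -0.10 for Sort1 with NP24, -0.06 for Ntrk3 and -0.02 for Sort1 with Tβ10, and 0.06 for Sort1 and 0.02 for Cntfr with Tβ4. It gave -0.11 for Ntrk2 and -0.41 for Ntrk3 for NP24 against Tβ4, and 0.13 and 0.30 for Tβ4 against Tβ10. The slope of each library on gene length as a covariate, chosen after seeing the data, gave -0.02 for Ntrk2 with Tβ4. Using all 16 libraries for the spread, 120 genes passed with NP24 (1 of the 9), 62 with Tβ10 and 2 with Tβ4. Fits of 8 libraries gave 109 genes (1 of the 9) for NP24 against Tβ4 and 77 for Tβ4 against Tβ10. The cause of these changes was not tested.

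With the replicate number as a block (replicate block), 1 of the 9 passed with NP24 (Clcf1, with Ntrk2 at an adjusted p of 0.0618 and Ntf3 at 0.0654), and 91 genes with Tβ10, 2 with Tβ4 and 214 for Tβ4 against Tβ10. The numbers did not pair the samples: deviations of libraries with the same number correlated at -0.09 to 0.08 with those of the control, and not every library correlated best with its own number.

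Leaving out 1 library at a time gave 133 to 757 genes with NP24 (0 to 2 of the 9), 29 to 320 with Tβ10 (0 to 1), 0 to 360 with Tβ4, 103 to 1392 for NP24 against Tβ4 (1 to 3) and 87 to 1055 for Tβ4 against Tβ10 (1 to 3). The highest values with Tβ4 came without its library 2, and the 0 of the 9 with NP24 without control library 1. Ranges that crossed 0 were -0.07 to 0.68 for Ngfr with NP24, and with Tβ4 0.00 to 0.75 for Ngfr, -0.20 to 0.13 for Ntrk2, -0.24 to 0.16 for Ntrk3, -0.08 to 0.06 for Sort1 and -0.09 to 0.04 for Cntfr. Between peptides they were -0.11 to 0.37 for Bdnf, -0.05 to 0.07 for Ntrk2 and -0.19 to 0.01 for Ntrk3 (NP24 against Tβ10), and -0.36 to 0.04 for Ntf3 and 0.00 to 0.40 for Ntrk3 (NP24 against Tβ4). For the other 4 genes between peptides, 20 of 228 values had the other sign and 0 passed. Few reads limit Ngfr most.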
